A study of Mus musculus with 9 samples.

Results

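The cytochrome P450 genes were taken as the genes whose symbol starts with Cyp and a digit. Cyp51, the lanosterol demethylase of cholesterol synthesis, and 1 pseudogene were left out, so 2 names of this form were not counted. Of the 16937 genes listed in at least 1 of the 3 deposited tables, 69 were cytochrome P450 genes, of which 43 belonged to families 1 to 3, 15 to family 4 and 11 to other families. The comparison of WT Cold with WT RT listed 68 of them, that of GCN2 KO Cold with WT Cold 67 and that of GCN2 KO Cold with WT RT 61. A total of 60 were listed in all 3 tables, and 67 had a value in all 9 libraries. Cyp11a1 and Cyp46a1 had values in the WT libraries alone. The lowest gene in each table had 61 reads over its 6 libraries, so a weakly expressed gene could enter a table through the group where it was high.

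RNA was measured in brown adipose tissue of adult mice, in 3 groups of 3 libraries. WT RT mice were wild type and were kept at 23 °C, WT Cold mice were wild type and spent 8 h at 4 °C, and GCN2 KO Cold mice carried a whole-body deletion of Gcn2 and spent 8 h at 4 °C. All mice were on a C57BL/6J background, had been housed alone for 5 days at 23 °C and were killed at the same time of day, and no library came from GCN2 KO mice at room temperature. The study states that its groups held mice of both sexes, but the sources used here do not tie a sex to a library. The title of 1 GCN2 KO Cold sample names both genotypes and no temperature, and it was grouped by its genotype and temperature tags. GCN2 is the kinase, encoded by Eif2ak4, that phosphorylates eIF2α when amino acids run short, and the comparisons ask how brown fat RNA differs with cold and, in cold, with the loss of this kinase. The libraries of each group are called A, B and C here in the order of their codes. WT RT libraries carried another code prefix than both cold groups, and what the prefix stands for is not given in the sources used here, so whatever it marks and the cold cannot be told apart. Levels are given as CPM, the reads of a gene scaled to a common total of reads on listed genes, and a log2 fold change is a difference between group means of log2(normalized count + 1).

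Cytochrome P450 enzymes hold a haem group and use oxygen and electrons, passed on by Por or by the ferredoxin system, to hydroxylate or epoxidize their substrates. Families 1 to 3 act mostly on drugs and other foreign compounds and on fatty acids, family 4 hydroxylates fatty acids and eicosanoids at or near the chain end, and the remaining families make or break down bile acids, steroids, retinoic acid and vitamin D. Most members are best known from liver, where the nuclear receptors CAR and PXR and the aryl hydrocarbon receptor AhR induce many of them, and brown fat is known above all for heat production by Ucp1.

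The libraries held 27058799 to 30768064 reads on listed genes. Brown adipocyte markers (Ucp1 and 7 others) summed to between 18000 and 29310 CPM, a sum in which Fabp4, a gene of fat cells in general, was the largest part. Ucp1 alone stood at 3592 to 9693 CPM, so the labelled tissue was borne out in all 9 libraries. Transcripts of other organs were also present. The 6 hepatocyte markers Alb, Apoa1, Ttr, Apob, Serpina1a and Fgb summed to 2719 to 3570 CPM in WT RT. The same sum was 1198, 2127 and 5562 CPM in WT Cold A, B and C, and 1883, 3828 and 4201 CPM in GCN2 KO Cold A, B and C. WT Cold C was thus the library richest in these transcripts, and WT Cold A the poorest. A set of 8 colon epithelium markers, chosen after the values were seen, summed to 147.6 to 427.6 CPM in WT RT, 382.9 to 698.4 CPM in WT Cold and 255 to 747.3 CPM in GCN2 KO Cold. Xist, the RNA that coats the inactive X chromosome of female cells, stood at 130.6 CPM in WT Cold C and 127.5 CPM in GCN2 KO Cold C, against 11.2 to 43.5 CPM in the other 7 libraries. The Y chromosome gene Ddx3y showed the opposite, at 7.02 and 10.5 CPM in those 2 libraries against 84.8 to 144.3 CPM elsewhere. The 3 WT RT libraries were all low in Xist and high in Ddx3y, at 86.9 to 93.4 CPM, while each cold group held 1 library with the opposite pattern, so the groups were not balanced for these genes. No WT RT library showed high Xist and low Ddx3y, although the study states that its groups held both sexes. These X and Y chromosome genes were looked up after the other values were seen. Eif2ak4, the targeted gene, was not low in the libraries labelled GCN2 KO Cold: it ranged from 11.8 to 12.7 CPM there, from 6.46 to 8.34 CPM in WT Cold and from 11.1 to 13.0 CPM in WT RT, and which exons the deletion removes is not given in the sources used here, so the level does not check the label.

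Macrophage markers were lower in both cold groups, with sums of 335.6 to 506.2 CPM in WT RT, 170.5 to 254.2 CPM in WT Cold and 127.4 to 193.2 CPM in GCN2 KO Cold. Skeletal muscle markers summed to 1932 to 2368 CPM in WT RT and 1767 to 2919 CPM in WT Cold, but to 226.8 to 1025 CPM in GCN2 KO Cold. Sums over all libraries ran from 471.6 to 715.4 CPM for endothelial markers, from 579 to 881.2 CPM for fibroblast and mural markers, from 5.56 to 10.4 CPM for B cell and T cell markers and from 3.36 to 8.13 CPM for the 2 listed markers of adrenal cortex. In bulk tissue, fewer cells of a type and less RNA per cell cannot be told apart.

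Promoters are shown for the 4 members called in WT Cold against WT RT, namely Cyp2b10, Cyp4b1, Cyp2e1 and Cyp26b1, and for Cyp1a1, which was called in GCN2 KO Cold against WT RT and had the largest difference in favour of the knockout between the cold groups. Each runs from 250 bases before to 50 bases after the start of the gene in RefSeq (GRCm38.p6), read along the gene's strand. The submitters' notes name GRCm39 for the reads, and the tables hold no coordinates. Capitals mark the letters searched for, on either strand.
Cyp2b10: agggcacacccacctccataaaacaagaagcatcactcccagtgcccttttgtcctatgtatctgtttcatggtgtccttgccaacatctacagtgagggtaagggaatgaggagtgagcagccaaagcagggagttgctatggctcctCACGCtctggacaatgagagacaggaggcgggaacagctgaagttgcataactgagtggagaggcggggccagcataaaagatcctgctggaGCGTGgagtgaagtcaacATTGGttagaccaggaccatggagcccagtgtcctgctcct
Cyp4b1: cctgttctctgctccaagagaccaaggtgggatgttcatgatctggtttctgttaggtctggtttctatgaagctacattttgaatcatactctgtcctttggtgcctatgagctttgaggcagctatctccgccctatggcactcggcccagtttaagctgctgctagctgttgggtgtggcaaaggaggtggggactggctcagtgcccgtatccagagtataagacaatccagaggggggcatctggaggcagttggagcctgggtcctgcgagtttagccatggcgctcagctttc
Cyp2e1: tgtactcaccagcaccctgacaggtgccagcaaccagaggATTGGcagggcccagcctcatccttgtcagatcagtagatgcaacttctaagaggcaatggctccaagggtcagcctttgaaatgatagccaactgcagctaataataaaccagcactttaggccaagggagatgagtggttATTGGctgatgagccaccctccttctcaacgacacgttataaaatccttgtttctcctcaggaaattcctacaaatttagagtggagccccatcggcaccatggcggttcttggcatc
Cyp1a1: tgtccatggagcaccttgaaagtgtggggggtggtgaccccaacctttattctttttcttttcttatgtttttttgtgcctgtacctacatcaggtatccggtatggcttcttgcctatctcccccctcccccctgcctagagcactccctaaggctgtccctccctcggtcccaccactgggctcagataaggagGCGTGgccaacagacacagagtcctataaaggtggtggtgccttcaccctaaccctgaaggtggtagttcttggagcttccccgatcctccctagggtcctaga
Cyp26b1: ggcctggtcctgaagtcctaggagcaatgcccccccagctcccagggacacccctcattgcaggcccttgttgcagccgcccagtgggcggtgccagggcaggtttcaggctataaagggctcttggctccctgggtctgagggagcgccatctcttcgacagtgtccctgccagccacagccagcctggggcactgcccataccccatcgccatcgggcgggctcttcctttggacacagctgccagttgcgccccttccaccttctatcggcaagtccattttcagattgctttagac
The windows lie at chr7:25897408-25897707 on the plus strand for Cyp2b10, chr4:115647672-115647971 on the minus strand for Cyp4b1, chr7:140763569-140763868 on the plus strand for Cyp2e1, chr9:57697363-57697662 on the plus strand for Cyp1a1 and chr6:84593761-84594060 on the minus strand for Cyp26b1. GCGTG, the core of the AhR response element, occurred in the Cyp1a1 window and at 2 places in the Cyp2b10 window. CCAAT occurred once in Cyp2b10 and at 2 places in Cyp2e1, read there on the other strand. The windows of Cyp4b1 and Cyp26b1 held none of the 7 motifs.

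RefSeq promoters were found for 53 of the 69 symbols, with 59 promoters in all. AGGTCA, a site bound by many nuclear receptors, lay in 25.4% of them against 16.3% of all 32851 promoters of that length, among them those of Cyp3a11, Cyp2c29 and Cyp2a5. CCAAT lay in 50.8% against 37.4%, and GCGTG in 18.6% against 32.4%. TGACG, the core letters of the cAMP response element, lay in 8.47% against 20.8%. None of the 59 held the full element TGACGTCA, which contains TGACG, or the C/EBP site ATTGCGCAA, present in 1.79% and 0.0487% of all promoters. TTGCATCA, a composite site of C/EBP and ATF4, lay in the promoter of Cyp3a11 and in 0.895% of all promoters. These shares describe letters in 300 bases and not binding.

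At room temperature the family was led by Cyp2e1, the ethanol- and acetone-oxidizing enzyme. Per kilobase of exon it reached 229.8 CPM, 8.07 times the next gene, Cyp3a11, a broad drug-metabolizing enzyme, at 28.5 CPM per kilobase. Cyp27a1, the mitochondrial sterol 27-hydroxylase, followed at 23.1, Cyp4b1, a fatty acid and foreign-compound hydroxylase, at 20.9 and Cyp2c29, an epoxygenase, at 18.6 CPM per kilobase. The median member reached 3.55 CPM per kilobase, and 48 of the 69 were at or above 1 CPM per kilobase. The SDs of the 3 WT RT libraries were 133.5 CPM around a mean of 496 CPM for Cyp2e1, 28.4 around 145 for Cyp3a11, 2.43 around 50.3 for Cyp27a1, 3.85 around 47.2 for Cyp4b1 and 7.12 around 56.9 for Cyp2c29. The members lay in clusters on the genome (GENCODE M21, GRCm38), with 14 genes on chromosome 19, 12 on chromosome 7 and 11 on chromosome 4. Of the 69, 6 shared over 20% of their 100-base stretches with another P450 gene, namely Cyp2c40, Cyp2c67, Cyp2c69, Cyp3a41a, Cyp4a12a and Cyp4a12b, and 35 shared none. Only unique reads were counted, so reads from shared stretches may have been left out and the levels of those genes may be too low.

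Summed over the family, WT RT libraries A, B and C held 1841, 1426 and 1456 CPM. WT Cold held 2032, 2792 and 3060 CPM and GCN2 KO Cold 2225, 2966 and 2437 CPM, so every cold library lay above every WT RT library. Cyp2b10 made up 1.18% to 2.44% of the family in WT RT, 15.0% to 23.3% in WT Cold and 14.9% to 18.2% in GCN2 KO Cold. Without Cyp2e1 and Cyp2b10 the sums overlapped, at 975 to 1170 CPM in WT RT, 733.2 to 1636 CPM in WT Cold and 972.2 to 1363 CPM in GCN2 KO Cold.

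Many members followed the hepatocyte markers from library to library rather than the groups. For 23 of the 67 members with 9 values (34.3%), the SD of the log2 ratio to the hepatocyte marker sum was at most 0.5 times the SD of the gene's own log2 level. The same held for 1.55% of 16526 other genes. Cyp2j5 had an SD of 0.67 for its level and of 0.09 for the ratio, Cyp2d26 of 0.71 and 0.13, and Cyp3a11 of 0.76 and 0.19. This group, 18 of them in families 1 to 3, held Cyp1a2, 8 Cyp2c genes (Cyp2c23, Cyp2c29, Cyp2c37, Cyp2c38, Cyp2c50, Cyp2c54, Cyp2c67 and Cyp2c70), Cyp3a25 and Cyp3a59, and the bile acid enzymes Cyp7b1 and Cyp8b1. Cyp3a11 stood at 177.7, 130.5 and 126.7 CPM in WT RT, at 44.6, 77.0 and 239.6 CPM in WT Cold and at 102.4, 167.5 and 201.5 CPM in GCN2 KO Cold. WT Cold alone spanned the lowest and the highest of these values, and the 3 groups overlapped. Another 5 members (Cyp2c55, Cyp2d12, Cyp2d34, Cyp2s1 and Cyp4f40; 7.46% against 1.42% of other genes) followed the colon markers in the same sense, such as Cyp2s1 with an SD of 0.62 for its level and 0.15 for the ratio. The marker sums were used to form these groups, which are a description and were given no test.

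**Figure D1:**
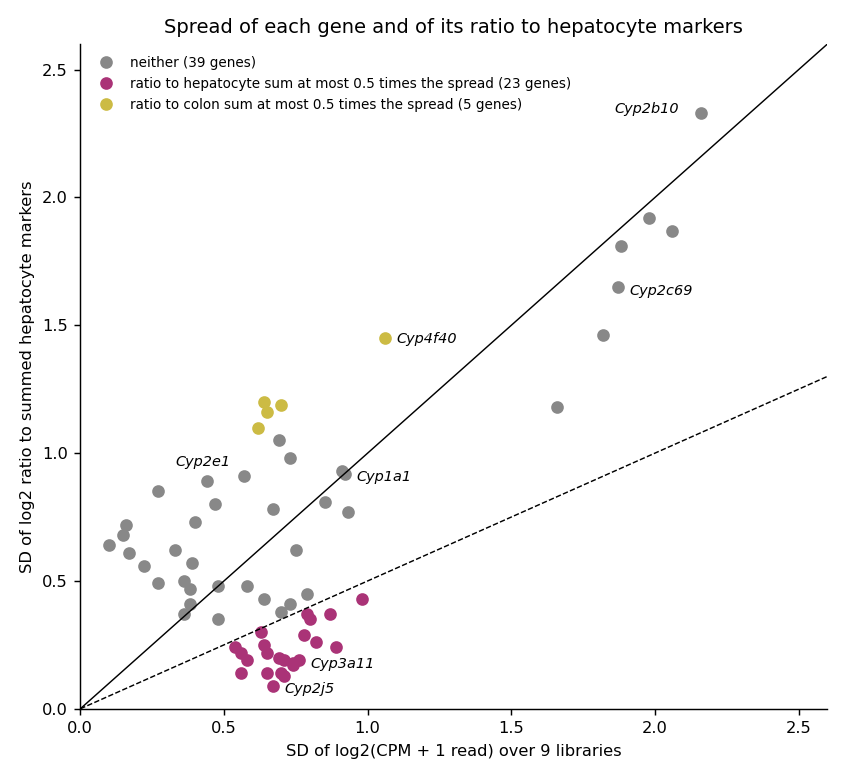
Each point is 1 of the 67 cytochrome P450 genes with a value in all 9 libraries, with the SD of its log2 level on the x axis and the SD of its log2 ratio to the summed hepatocyte markers on the y axis (log2 units). The solid line marks equal spread and the dashed line 0.5 times the spread; the 23 genes at or below the dashed line include Cyp3a11 and Cyp2j5, while Cyp2b10 and Cyp2e1 lie above the solid line.

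**Figure D2:**
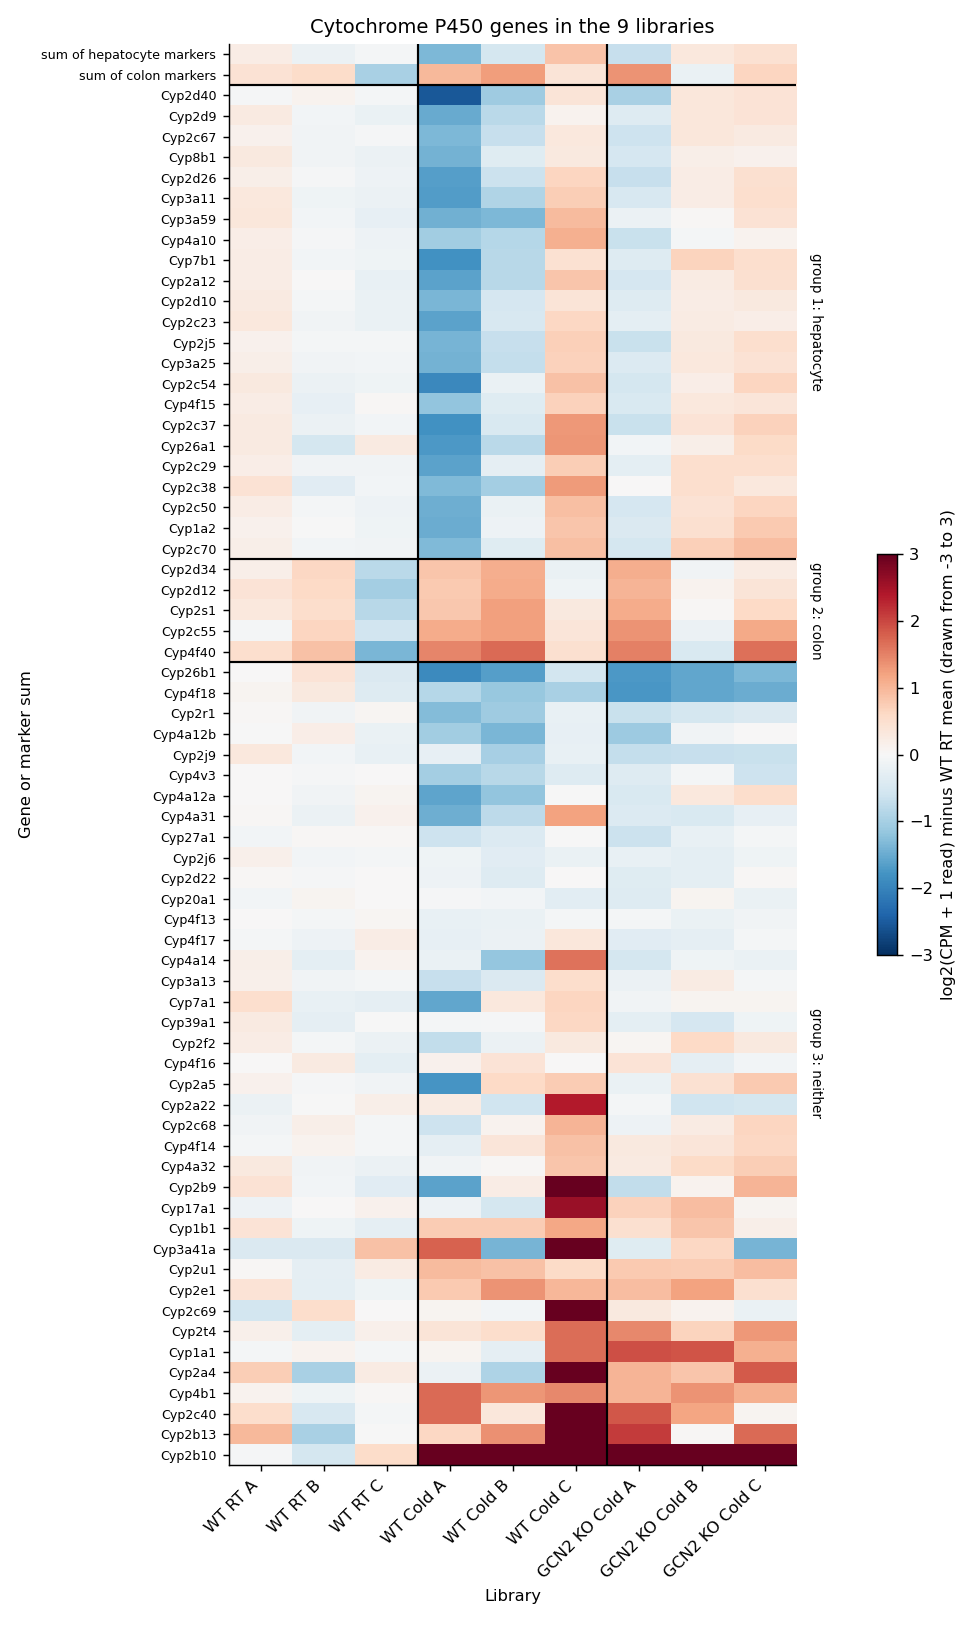
Rows are the 67 genes and the 2 marker sums, columns the 9 libraries, and colour the difference of log2(CPM + 1 read) from the WT RT mean. Group 1 holds the 23 genes that followed the hepatocyte sum, group 2 the 5 that followed the colon sum and group 3 the other 39, where Cyp2b10 and Cyp4b1 are higher in all 6 cold libraries.

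A further set of genes was high in WT Cold C alone. Cyp2c69 had 393 reads there and 5 to 12 reads in each other library, and Cyp2b9 reached 8.37 CPM there against 0.104 to 0.813 CPM elsewhere. Cyp2c40 stood at 7.43 CPM against 0.065 to 0.47 CPM, and Cyp2a4 at 6.49 CPM against 0.065 to 0.665 CPM. Cyp2b13 and Cyp3a41a had 143 and 80 reads in WT Cold C and at most 7 and 8 in any other library. These genes are known as female-predominant in mouse liver, and Cyp2d9 and Cyp4a12a as male-predominant. GCN2 KO Cold C, the other library high in Xist, did not share the pattern, with 0.222 CPM for Cyp2c69 and 53.4 CPM for Cyp2d9 against 43.3 CPM in WT Cold C. Of the 6 genes named, 1, Cyp2b9, was listed in all 3 tables.

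**Figure D3:**
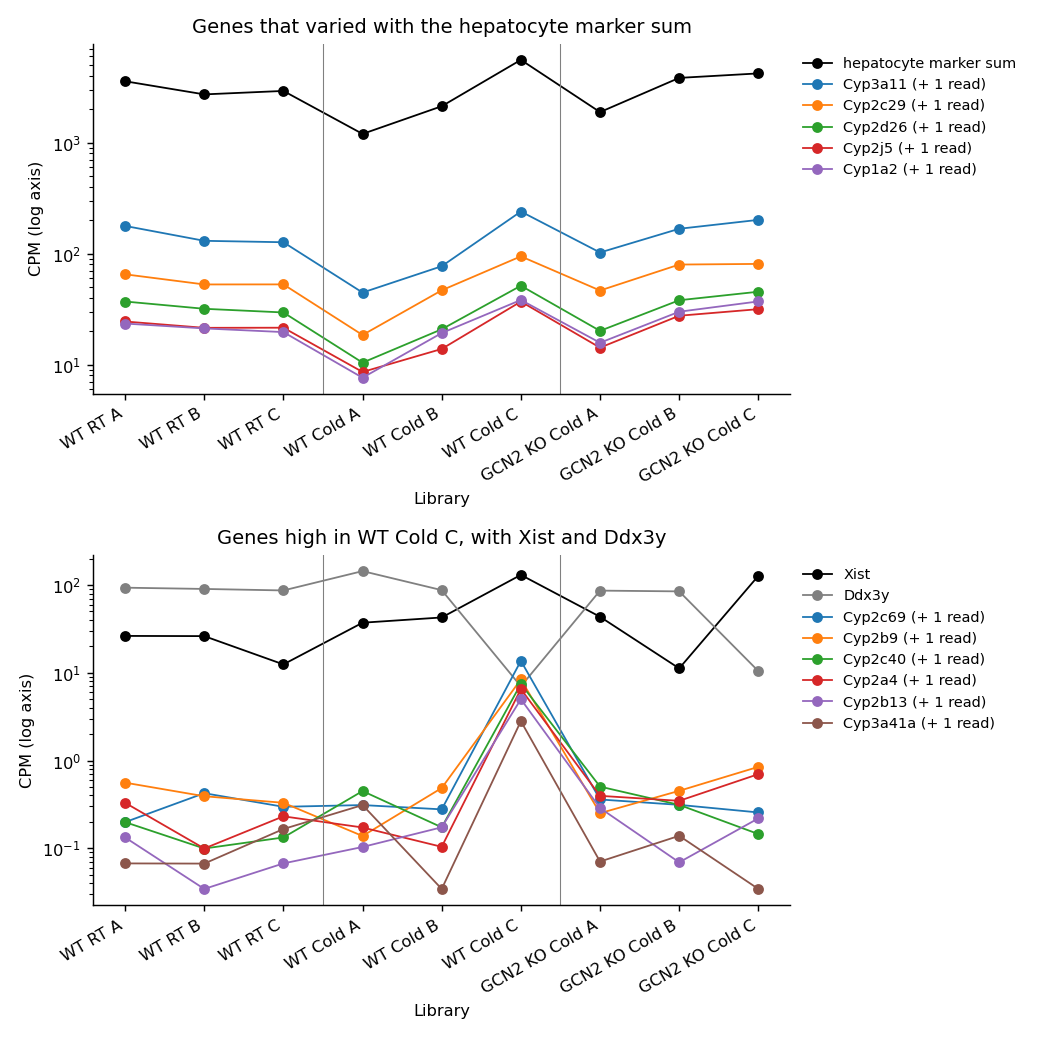
CPM on a log axis for each library, with 1 read added for P450 genes, for 5 genes that followed the hepatocyte marker sum (top) and for 6 genes that were high in WT Cold C, with Xist and Ddx3y (bottom). In the bottom panel the 6 P450 genes peak in WT Cold C, while Xist is high in both WT Cold C and GCN2 KO Cold C.

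In cold-exposed wild-type mice a few P450 genes rose strongly and most did not pass the test. Cyp2b10, Cyp4b1 and Cyp2e1 were called higher in the cold group and Cyp26b1 lower, where a call needed an adjusted p under 0.05 and a log2 fold change beyond 1 in either direction. Of all 16679 genes tested, 2.99% were called higher and 5.15% lower, so 3 and 1 of the 68 members do not set the family apart. At an adjusted p under 0.05 without the fold threshold, 5 members were higher and 3 lower, against 27.7% of all genes in either direction. The median log2 fold change was -0.16 over the members and 0.00 over all genes.

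Cyp2b10, the main target of the nuclear receptor CAR in liver, changed most. It stood at 23.4, 16.8 and 35.5 CPM in WT RT and at 460.7, 649.4 and 459.7 CPM in WT Cold, with every cold library above every room temperature library. The log2 fold change was 4.50 (SE 0.28, limma, adjusted p = 0.000119, higher in 3 of 3 libraries). Cyp2b10 shared no 100-base stretch with another P450 gene. WT Cold A, at 460.7 CPM of Cyp2b10, had the lowest hepatocyte sum of all libraries, 1198 CPM, and WT Cold C, at 459.7 CPM, the highest, 5562 CPM. In a fit with both marker sums as covariates the log2 fold change was 4.78 (limma, adjusted p = 6.05e-06).

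Cyp2e1 was at 647.4, 395.1 and 445.4 CPM in WT RT and at 837.7, 1227 and 964.3 CPM in WT Cold, again without overlap. The log2 fold change was 1.12 (SE 0.20, limma, adjusted p = 0.0063), and 1.03 with the marker sums as covariates. It dropped below the fold threshold without WT Cold B (0.98, adjusted p = 0.0252) or without WT RT B (0.96, adjusted p = 0.0223). Cyp2e1 is also abundant in liver. WT Cold A, poorest in hepatocyte markers, was the lowest of the WT Cold libraries for Cyp2e1, and WT Cold C, richest in them, lay between the other two. It remained the highest member per kilobase, at 467.8 CPM per kilobase in WT Cold, followed by Cyp2b10 at 247.7.

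Cyp2u1, a hydroxylase of long-chain fatty acids, and Cyp1b1, which acts on oestradiol and polycyclic hydrocarbons, passed the adjusted p but not the fold threshold. Cyp2u1 rose from 16.4 to 23.2 CPM in WT RT to 29.1 to 37.9 CPM in the cold, with a log2 fold change of 0.88 (SE 0.16, limma, adjusted p = 0.00679). Cyp1b1 rose from 7.71 to 12.3 CPM to 15.6 to 20.7 CPM, a log2 fold change of 0.97 (SE 0.20, limma, adjusted p = 0.0101). The groups did not overlap for either gene. Cyp1a1, the classical AhR target, was at 14.6, 16.4 and 14.6 CPM in WT RT and at 16.1, 12.6 and 48.7 CPM in WT Cold, so WT Cold C alone was high. Its log2 fold change was 0.58 (SE 0.45, limma, adjusted p = 0.371), and -0.03 (adjusted p = 0.898) without WT Cold C. In families 1 to 3 as a whole, 4 of 42 genes passed the adjusted p, all higher, and the median log2 fold change was -0.13.

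In family 4, Cyp4b1 rose from 50.5, 43.0 and 48.0 CPM in WT RT to 153.3, 117.1 and 127.2 CPM in WT Cold. The spread within each group was small against the difference, and the log2 fold change was 1.57 (SE 0.12, limma, adjusted p = 0.000218). Cyp4v3, a fatty acid hydroxylase of many tissues, fell from between 50.4 and 52.4 CPM to between 25.3 and 39.4 CPM, a log2 fold change of -0.66 (SE 0.17, limma, adjusted p = 0.0231). Cyp4f18, which hydroxylates leukotriene B4 in myeloid cells, fell from between 1.54 and 2.503 CPM to between 0.903 and 1.11 CPM, a log2 fold change of -0.91 (SE 0.25, limma, adjusted p = 0.0329). Both passed the adjusted p without WT Cold C (limma, adjusted p = 0.00085 for Cyp4v3 and 0.043 for Cyp4f18), but Cyp4v3 no longer passed it when any of the other 5 libraries was left out (up to 0.0791, without WT Cold B), nor did Cyp4f18 without WT Cold A, WT Cold B, WT RT A or WT RT B (up to 0.108). Macrophage markers fell in the same libraries, with 4 of 6 past the adjusted p and a median log2 fold change of -0.97, and their part in the Cyp4f18 result was not tested. The PPARα targets Cyp4a10 and Cyp4a14 were at 17.4 to 22.3 and 15.3 to 21.2 CPM in WT RT, and spanned 9.33 to 40.6 and 8.31 to 58.3 CPM in WT Cold, with WT Cold C the highest for both. Over the 15 genes of family 4 the median log2 fold change was -0.08.

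Among the other families, Cyp26b1, which breaks down retinoic acid, fell from 5.48, 7.31 and 4.04 CPM in WT RT to 1.42, 1.70 and 3.68 CPM in WT Cold. The groups did not overlap, but WT Cold C lay close to the lowest WT RT library. The log2 fold change was -1.30 (SE 0.38, limma, adjusted p = 0.0395), and edgeR gave an adjusted p of 0.0547. With 1 library left out the adjusted p ran from 0.00243, without WT Cold C, to 0.124, without WT RT B, and was above 0.05 without any of the other 5 libraries. Cyp27a1 was at 47.5 to 51.8 CPM in WT RT and 32.7 to 50.2 CPM in WT Cold, with a log2 fold change of -0.26 (SE 0.17, limma, adjusted p = 0.285). Cyp7a1, the rate-limiting enzyme of bile acid synthesis, was at 6.76 to 11.5 CPM in WT RT and 2.73 to 12.8 CPM in WT Cold. The median log2 fold change over the 11 genes was -0.30, and 1 of them passed the adjusted p.

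The library WT Cold C decided how many members passed. Without it, 17 members were called, 5 higher and 12 lower, against 4.18% and 6.94% of all genes, and 29 passed the adjusted p in place of 8, against 34.0% of all genes. Without WT Cold B or WT RT A, 5 passed the adjusted p, against 17.4% and 18.9% of all genes. Of the 12 lower genes, 8 were among those that followed the hepatocyte markers, such as Cyp3a11 with a log2 fold change of -1.22 (SE 0.23, limma, adjusted p = 0.00574) against -0.53 (SE 0.54, adjusted p = 0.5) with all 6 libraries. With all 6 libraries Cyp2c29, at 18.5, 46.7 and 94.5 CPM in WT Cold, had a log2 fold change of -0.30 (SE 0.51, limma, adjusted p = 0.694). In the fit of all 9 libraries with the marker sums as covariates, 12 of 60 members passed the adjusted p, against 25.3% of all its genes. They were the 8 above and Cyp3a11 (-0.37, SE 0.10, limma, adjusted p = 0.0275), Cyp2d9, Cyp2d10 and Cyp4a12a (adjusted p = 0.0025, 0.0308 and 0.0475). The last 4 did not pass without the covariates. Cyp2d9 and Cyp4a12a are named above as male-predominant in liver, and the part of the female-predominant pattern of WT Cold C in their results was not tested. Of the 5 higher genes, 2, Cyp2c55 and Cyp2d34, followed the colon markers. In the 2 remaining WT Cold libraries the hepatocyte sum was below that of every WT RT library, and its part in these calls was not tested.

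**Figure D4:**
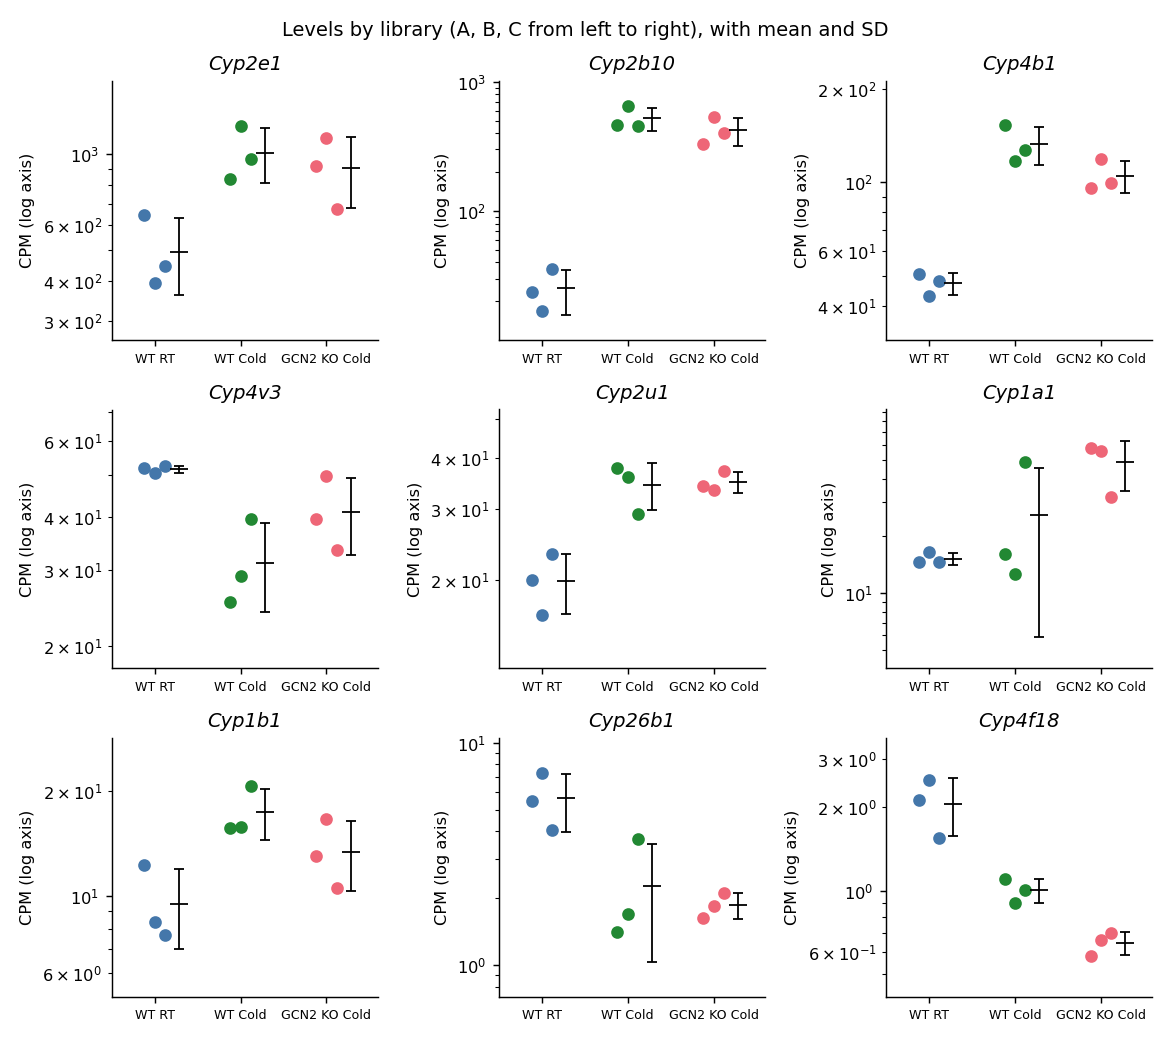
CPM on a log axis of 9 cytochrome P450 genes in each library (points, A to C from left to right), with the group mean and SD (black). Cyp2b10, Cyp4b1, Cyp2e1, Cyp2u1 and Cyp1b1 lie higher in every WT Cold library than in any WT RT library, and Cyp1a1 is high in WT Cold C and in the 3 GCN2 KO Cold libraries.

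GCN2 KO Cold was compared with WT RT, the same 3 room temperature libraries as above. Of the 61 members listed, 6 were called higher (Cyp2b10, Cyp1a1, Cyp4b1, Cyp2t4, Cyp2e1 and Cyp2u1) and 2 lower (Cyp4f18 and Cyp26b1). The shares of all 16560 genes called were 3.01% and 7.58%. Cyp2t4 had 61 reads over the 6 libraries, the fewest of any gene in this table, so it was listed through the group where it was high, and leaving it aside 5 of the other 60 members were called higher. Past the adjusted p alone were 9 higher and 2 lower members, against 34.2% of all genes in either direction, and the median log2 fold change was 0.31 over the members and 0.01 over all genes. Without GCN2 KO Cold A, 27 of the 61 members passed the adjusted p in place of 11, against 31.8% of all genes, and without another single library 8 to 10 did. The hepatocyte sums of GCN2 KO Cold B and C were above those of all WT RT libraries, and their part in this count was not tested. Scaled by total reads, the median of all genes moved to -0.192, and Cyp2e1, Cyp2u1 and Cyp2t4 were no longer called.

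Cyp2b10 stood at 330.5, 539.2 and 402 CPM in GCN2 KO Cold, all above WT RT, with a log2 fold change of 4.31 (SE 0.29, limma, adjusted p = 9.5e-05). Cyp1a1 stood at 58.0, 56.0 and 32.1 CPM against 14.6 to 16.4 CPM in WT RT. All 3 libraries were higher, with a log2 fold change of 1.83 (SE 0.21, limma, adjusted p = 0.000624), and 1.65 with the marker sums as covariates. Cyp2e1 stood at 921.9, 1122 and 672.1 CPM, of which the last was close to the highest WT RT library. Its log2 fold change was 1.07 (SE 0.22, limma, adjusted p = 0.0069), and it fell below the fold threshold without WT RT B (0.91) or GCN2 KO Cold B (0.90). Cyp2u1 reached 33.4 to 37.3 CPM, a log2 fold change of 1.03 (SE 0.15, limma, adjusted p = 0.00152), and 0.88 without WT RT B. Cyp2t4, an enzyme with no settled substrate, rested on few reads, with 5 to 7 per WT RT library and 10 to 17 per GCN2 KO Cold library. Its log2 fold change was 1.32 (SE 0.41, limma, adjusted p = 0.039), while DESeq2 gave an adjusted p of 0.0858 and it passed the adjusted p in 1 of 6 fits with a library left out, that without GCN2 KO Cold B (0.0375), against 0.0695 to 0.118 in the others. Cyp1b1, at 10.5 to 16.6 CPM, and Cyp2f2, a lung and liver enzyme at 38.0 to 54.7 CPM, passed the adjusted p with log2 fold changes of 0.70 and 0.52 (limma, adjusted p = 0.0345 and 0.028). Neither passed it with CPM scaling (0.111 and 0.142), in the fit of all 9 libraries (0.0946 and 0.325) or in that fit with the marker sums as covariates (0.14 and 0.15).

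In family 4, Cyp4b1 was at 95.8, 119.3 and 99.2 CPM in GCN2 KO Cold, a log2 fold change of 1.35 (SE 0.11, limma, adjusted p = 0.000193). Cyp4f18 was at 0.579, 0.661 and 0.702 CPM, below all WT RT libraries, with a log2 fold change of -1.40 (SE 0.28, limma, adjusted p = 0.00582). All 6 macrophage markers were past the adjusted p and lower in the same libraries, with a median log2 fold change of -1.27, and their part in the result was not tested. Cyp4f14 rose by 0.63 on the log2 scale (SE 0.14, limma, adjusted p = 0.00901), by 0.43 with CPM scaling (adjusted p = 0.0408), by 0.43 in the fit of all 9 libraries (adjusted p = 0.199) and by 0.33 in that fit with the marker sums as covariates (adjusted p = 0.125). Cyp4v3, at 33.3 to 49.8 CPM, lay below all WT RT libraries in CPM, but the groups overlapped in the normalized counts that were tested (log2 fold change -0.15, SE 0.14, limma, adjusted p = 0.439). Of the other families, Cyp26b1 fell to 1.63, 1.84 and 2.11 CPM, a log2 fold change of -1.34 (SE 0.24, limma, adjusted p = 0.00367). Cyp27a1 was at 32.3 to 48.4 CPM and did not pass the test (log2 fold change -0.10, SE 0.15, limma, adjusted p = 0.639). Cyp3a11 and Cyp2c29, of the group that followed the hepatocyte markers, had log2 fold changes of 0.28 (SE 0.24, limma, adjusted p = 0.394) and 0.44 (SE 0.21, adjusted p = 0.135), with overlapping groups.

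**Figure D5:**
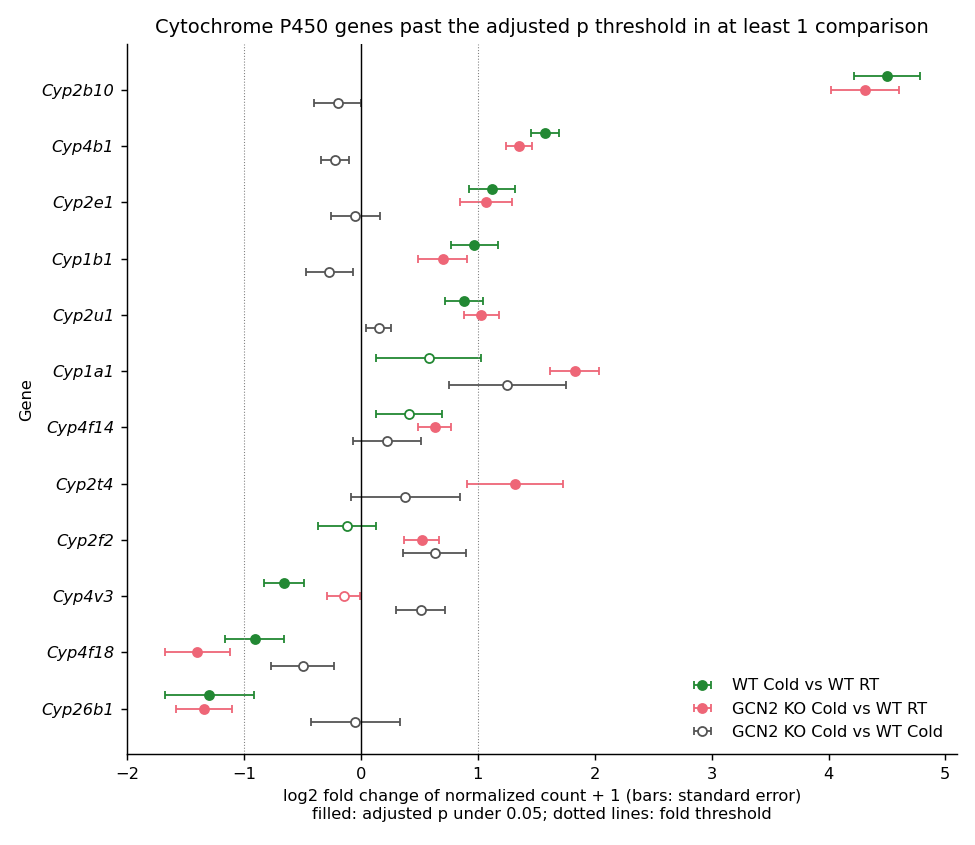
Log2 fold changes of the 12 members past the adjusted p threshold in at least 1 comparison (points, filled where past it), with standard errors (bars) and the fold threshold of 1 (dotted lines), for the 3 comparisons. Cyp2b10 reaches 4.50 and 4.31 against WT RT and -0.20 between the cold groups, where no point is filled.

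Between the cold groups, GCN2 KO Cold and WT Cold, no member was called by limma, DESeq2 or edgeR, and none passed the adjusted p alone. Of all 16312 genes, 0.257% were called and 0.405% passed the adjusted p. At an unadjusted p under 0.05, 5 of the 67 members passed with limma, against 15.3% of all genes, 3 with DESeq2, against 13.1%, and 4 with edgeR, against 15.3%. This count rested on WT Cold C: without it 32 of the 67 members passed an unadjusted p of 0.05, against 16.4% of all genes, and none passed the adjusted p, while without another single library 0 to 4 did. A missed threshold does not show that levels were alike, and the 95% intervals give what these libraries allow. For Cyp2b10 the log2 fold change was -0.20, with an interval from -0.67 to 0.28 (limma, adjusted p = 0.704). The intervals ran from -0.54 to 0.43 for Cyp2e1, from -0.50 to 0.06 for Cyp4b1, from -0.10 to 0.41 for Cyp2u1, from -0.93 to 0.83 for Cyp26b1 and from -0.72 to 1.48 for Cyp2t4. For Cyp4f18, whose GCN2 KO Cold libraries all lay below the WT Cold libraries, the log2 fold change was -0.50, with an interval from -1.12 to 0.13 (limma, adjusted p = 0.442).

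Cyp1a1 had the largest difference in favour of GCN2 KO Cold, with a log2 fold change of 1.25 and an interval from 0.09 to 2.40 (SE 0.50, limma, adjusted p = 0.294). With 1 library left out the adjusted p ran from 0.0629, without WT Cold C, to 0.558, without WT Cold A. WT Cold A and B lay at 16.1 and 12.6 CPM, below all 3 GCN2 KO Cold libraries, and WT Cold C at 48.7 CPM lay among them. Of the AhR targets outside the family, Tiparp had a log2 fold change of -0.32 (SE 0.17, limma, adjusted p = 0.427), Nqo1 of -0.24 (SE 0.19, adjusted p = 0.611) and Ugt1a6a of -0.00 (SE 0.28, adjusted p = 0.996). Ahr itself was at 10.2 to 12.8 CPM in WT Cold and 9.08 to 11.96 CPM in GCN2 KO Cold. The other 4 members with an unadjusted p under 0.05, and so an interval above 0, were Cyp4a12a (1.17, interval 0.12 to 2.22, limma, adjusted p = 0.279), Cyp2d9 (0.98, 0.02 to 1.94, adjusted p = 0.318), Cyp2f2 (0.63, 0.01 to 1.26, adjusted p = 0.319) and Cyp4v3 (0.51, 0.03 to 0.99, adjusted p = 0.303).

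The 23 members that followed the hepatocyte markers were chosen on these libraries, so their direction goes with that of the marker sum. Their median log2 fold change was 0.69 between the cold groups and -0.40 in WT Cold against WT RT, the 7 hepatocyte markers including Hp had medians of 0.58 and -0.29, and none of the 23 passed the adjusted p in either. Cyp3a11 had a log2 fold change of 0.81 (SE 0.58, limma, adjusted p = 0.572) and Cyp2c29 of 0.74 (SE 0.55, adjusted p = 0.584). Cyp27a1, outside that group, had one of 0.16 (SE 0.21, adjusted p = 0.777). With the marker sums as covariates, 3 of the 60 members in that fit passed the adjusted p, against 4.62% of all its genes, and none was beyond the fold threshold. They were Cyp2d9, Cyp4a12a and Cyp7b1 (limma, adjusted p = 0.00651, 0.0375 and 0.0293). Cyp2d9 and Cyp4a12a are named above as male-predominant in liver. They stood at 43.3 and 4.52 CPM in WT Cold C and at 53.4 and 6.54 CPM in GCN2 KO Cold C. WT Cold C, with the highest hepatocyte sum, was alone high in the female-predominant genes, and the part of this in the results was not tested. The median log2 fold change over all 67 members was 0.22, against -0.00 over all genes.

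Transcripts of genes that serve P450 enzymes differed in both directions with cold. Shares past the adjusted p in the lists below stand against 27.7% of all genes in WT Cold against WT RT and 34.2% in GCN2 KO Cold against WT RT. Among 9 redox partners tested in WT Cold against WT RT, 1 rose and 4 fell at an adjusted p under 0.05, with a median log2 fold change of -0.27. Cyb5a, the cytochrome b5 of the endoplasmic reticulum, rose (log2 fold change 0.61, SE 0.11, limma, adjusted p = 0.00539), while Cyb5b, Cyb5r3, Fdxr and Pgrmc2 fell by 0.76, 0.81, 0.65 and 0.79 on the log2 scale. Por, the reductase that feeds electrons to microsomal P450 enzymes, was at 280.9 to 326.3 CPM in WT RT and 287.4 to 386.5 CPM in WT Cold, with a log2 fold change of 0.18 (SE 0.14, limma, adjusted p = 0.355). Of 13 genes of haem synthesis and breakdown, 4 rose and 5 fell. Alas2, the erythroid form of the first enzyme of haem synthesis, rose by 1.55 (SE 0.43, limma, adjusted p = 0.0329). It went from between 7.18 and 10.7 CPM in WT RT to 19.1, 53.7 and 14.8 CPM in WT Cold, so WT Cold B was far above the other libraries. Alas1, the other form of this enzyme, did not pass the test (0.24, SE 0.11, limma, adjusted p = 0.161). The haem oxygenase Hmox1 rose by 1.08 (SE 0.18, limma, adjusted p = 0.00485), whereas Alad fell by 0.62 (SE 0.07, limma, adjusted p = 0.00113). Against WT RT, GCN2 KO Cold showed 2 redox partners higher and 4 lower, and 5 haem genes higher and 3 lower. Between the cold groups no gene of either list passed the adjusted p.

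Of 26 transcription factors that regulate P450 genes and were listed, 4 rose and 3 fell in WT Cold against WT RT, about the share over all genes. The falls included the clock repressor Nr1d1 (log2 fold change -1.55, SE 0.12, limma, adjusted p = 0.000309), the clock output factor Dbp (-1.22, SE 0.24, adjusted p = 0.00904) and Ppara (-0.51, SE 0.08, adjusted p = 0.00445). The rises were Ppard (0.60), the liver X receptor Nr1h3 (0.51), Tef (0.74) and Esrra (0.69). Nr1i3, which encodes CAR, was low in all libraries, at 3.51 to 5.16 CPM in WT RT, 2.59 to 5.63 CPM in WT Cold and 4.34 to 5.84 CPM in GCN2 KO Cold. It did not pass the test in WT Cold (log2 fold change -0.13, SE 0.30, limma, adjusted p = 0.78), nor did the PXR gene Nr1i2 (0.65, SE 0.31, adjusted p = 0.153). Within each cold group Nr1i3 ranked as the hepatocyte sum did, at 2.59, 3.41 and 5.63 CPM in WT Cold A, B and C. In WT RT the order differed. Nr1i2 was lowest in WT RT C and GCN2 KO Cold B, at 3.05 and 4.94 CPM, the libraries lowest in colon markers. The part of hepatocyte and colon transcripts in these levels was not tested. In GCN2 KO Cold against WT RT, 5 regulators rose and 4 fell, and between the cold groups none passed. Of 3 listed AhR targets outside the family, Tiparp rose against WT RT in WT Cold (1.14, SE 0.15, limma, adjusted p = 0.00169) and in GCN2 KO Cold (0.82, SE 0.11, adjusted p = 0.0012), 2 comparisons that share their room temperature libraries.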

How the data were processed

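RNA-seq of 9 brown adipose tissue samples was analysed. Per the labels and the study's methods, the authors trimmed reads with Trimmomatic 0.36, aligned them with STAR 2.5.2b, counted unique exonic reads with featureCounts (Subread 1.5.2) and normalized them with DESeq2. The deposited signal values are counts divided by size factors set within each of 3 tables of 6 libraries, and 100% of them came out as whole reads (tolerance 0.0001). The authors' fold changes and p-values in these tables were not used. Library codes tie columns to groups, not to single mice, and 0 columns belonged to other samples. The main test was limma 3.58.1 (R 4.3.3) on log2(value + 1) with a mean-variance trend, the 2 groups of a table and Benjamini-Hochberg adjustment over all its genes. DESeq2 1.42.0 and edgeR 4.0.16 (quasi-likelihood) were run on recovered reads. Scripts were tested on simulated data. CPM used all reads on listed genes. Each library held 27058799 reads or more. Counting error weighs most on weakly expressed genes. The spread between libraries was not split into counting error, differences between mice and transcripts of other organs.

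Members and gene lists were chosen with earlier results of these data known. The rule for members named with full statistics took those called in any comparison and the 5 highest per kilobase in WT RT. Members past an adjusted p of 0.05 without the fold threshold, or past an unadjusted 0.05 between the cold groups, were added after their values were seen. The lists were redox partners, haem genes, regulators, AhR targets, eicosanoid enzymes and cell type markers; Hp was left out of the hepatocyte sum, since adipose tissue expresses it, after values were seen. Proteins were not compared.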

Additional observations from a re-analysis of the deposited data

How the results depend on the processing

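The number of members called in WT Cold against WT RT was 4. It was 8 with no fold change threshold, 3 to 5 under the other settings that used all 6 libraries (DESeq2, edgeR, CPM scaling, pseudocounts of 0.5 and 5, a mean normalized count of at least 50, no trend, and all 9 libraries in 1 fit with and without marker sums as covariates), and 3 to 17 when each library was left out in turn, with the 17 arising without WT Cold C. With DESeq2 Cyp3a41a also passed the adjusted p in WT Cold against WT RT (0.0148). It had 80 reads in WT Cold C and at most 8 in any other library, and shared 90.8% of its 100-base stretches with another P450 gene. In GCN2 KO Cold against WT RT the number of members called was 8. CPM scaling, the fit of all 9 libraries and that fit with covariates each gave 5, without Cyp2e1, Cyp2u1 and Cyp2t4 (Cyp2t4 was not listed in all 3 tables and so was not in the 9-library fits), and leaving out single libraries gave 5 to 8, with the 5 without WT RT B. Between the cold groups the count was 0 under every planned setting and 0 when any single library was left out, but 1, Cyp1a1, without both WT Cold C and GCN2 KO Cold C. That setting was chosen after the values were seen and removes the one WT Cold library high in Cyp1a1, so nothing is drawn from it. Under CPM scaling the median of all genes stood at -0.081, -0.119 and -0.192 on the log2 scale, for wild-type cold against room temperature, knockout against wild type in the cold, and knockout cold against room temperature. Of 114 values of single members with a library left out, 87 stayed past the adjusted p threshold and 27 did not, and of 166 under other settings 151 stayed and 15 did not, and none changed direction. No paired analysis was possible because the columns carry library codes and not the replicate numbers of the labels, so the replicate block was not run. Genes near the lower limit of the tables, such as Cyp2t4, rest on few reads.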

Other observations

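Among 7 listed enzymes that act after P450 enzymes on epoxides or that belong to prostanoid synthesis, Tbxas1, the thromboxane synthase of macrophages and platelets and itself a P450 enzyme by fold, was lower in WT Cold mice than at room temperature (log2 fold change -0.93, SE 0.25, limma, adjusted p = 0.0277) and lower in GCN2 KO Cold than at room temperature (-1.32, SE 0.31, adjusted p = 0.012). Macrophage markers were lower in the same libraries. Ephx1, the microsomal epoxide hydrolase, was lower in GCN2 KO Cold than at room temperature (-0.58, SE 0.11, limma, adjusted p = 0.00515) and had a log2 fold change of -0.72 in WT Cold, which did not pass (SE 0.24, adjusted p = 0.0602). It stood at 53.7 to 60.0 CPM in WT RT and at 26.4, 26.3 and 49.2 CPM in WT Cold A, B and C. The highest of these was WT Cold C, the library richest in hepatocyte markers, whose part was not tested. Ephx2, the soluble epoxide hydrolase, did not pass the test in WT Cold or in GCN2 KO Cold against WT RT (0.19, SE 0.17, limma, adjusted p = 0.416, and 0.08, SE 0.10, adjusted p = 0.58). Between the cold groups none of the 7 passed the adjusted p.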
